A study of Mus musculus with 12 samples.

Results

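The matricellular genes Ccn1, Ccn2, Thbs1, Postn and Tgfbi and the SMAD brakes Smad7, Skil, Ski and Tgif1 were followed in 12 mouse microarrays of sorted epidermal cells. These 9 genes were chosen by symbol, as targets or feedback regulators of TGF-beta and YAP. Each was read by a single probe set, so 9 genes of the 19938 with a symbol of their own are described. Ccn1 and Ccn2 are the present symbols of Cyr61 and Ctgf.

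There were 4 groups of 3 arrays. Hair follicle stem cells of the bulge came from dorsal skin of Per1-Venus mice 18 to 19 days old, in which the clock gene Per1 drives the Venus reporter. The sort took cells with bright alpha6 integrin and with CD34 and parted them into clock-positive cells (Venus bright) and clock-negative cells (Venus dim), with about 20 mice pooled per sample; the labels of the dim cells also carry the Venus-high gate, so the groups follow the titles and the series design. Basal cells of the interfollicular epidermis (IFE) came from dorsal skin of 1 year old mice with 5 mice per sample, either wild type or lacking the clock activator Bmal1 in the epidermis (Bmal1 epidermal knockout, KO). The driver of the deletion is not given in the sources used here, and no group was treated.

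Matricellular proteins are secreted into the matrix but signal to cells rather than build fibres. CCN1 and CCN2 bind integrins and are widely used readouts of YAP, the coactivator that the Hippo kinases hold out of the nucleus and that acts through TEAD factors on DNA. TGF-beta, which in skin restrains keratinocyte growth and contributes to follicle stem cell activation, passes its signal through receptor kinases to SMAD proteins. SMAD7 blocks the receptor, SKI and SKIL (SnoN) hold SMAD complexes in a repressed state, and TGIF1 is a homeobox corepressor of SMADs, and Smad7 and Skil are themselves induced by TGF-beta.

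Promoters from RefSeq (build GRCm38.p6) matched 5 members, Ccn1, Postn, Tgfbi, Ski and Tgif1, with 10 windows in all, each running from 250 bases before a gene start to 50 after it. They were searched on both strands for GGAATG, the core that TEAD factors bind, for the SMAD letters CAGAC and GTCTAGAC, and for the CArG box of SRF. None of these patterns overlapped in the windows. The 250 bases before the starts of Ccn1 (chr3:145649986-145650235, minus strand) and Tgfbi (chr13:56609336-56609585, plus strand) are shown, 5′ to 3′, because the first holds the TEAD match and the second 2 CAGAC matches, given in capitals as read on the gene's strand.
Ccn1: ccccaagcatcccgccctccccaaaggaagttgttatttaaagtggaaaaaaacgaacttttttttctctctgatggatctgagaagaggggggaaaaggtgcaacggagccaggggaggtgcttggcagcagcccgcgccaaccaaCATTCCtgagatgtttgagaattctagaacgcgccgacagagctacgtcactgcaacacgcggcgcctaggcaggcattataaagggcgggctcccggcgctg
Tgfbi: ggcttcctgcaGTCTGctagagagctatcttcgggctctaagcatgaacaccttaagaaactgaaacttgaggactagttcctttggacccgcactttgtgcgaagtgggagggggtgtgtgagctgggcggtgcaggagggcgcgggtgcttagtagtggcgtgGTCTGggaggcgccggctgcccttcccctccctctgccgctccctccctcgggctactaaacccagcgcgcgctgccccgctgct
The GGAATG match of Ccn1 lies on the opposite strand, 103 to 98 bases before the start, and Ccn1 held the 1 match among the 10 windows. The same letters occur in 14.7% of 32851 promoters of that length. CAGAC was found in 6 of the 10 windows and in 49.6% of all promoters, with both Tgfbi matches on the opposite strand. A window of Tgif1 also held 2 matches. GTCTAGAC and the CArG box were in 0 of the 10 windows, and in 0.213% and 1.63% of all promoters. These matches are letters in a window and not measured sites.

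The values are log2 intensities. Array medians lay between 6.82 and 6.84 in Venus-bright arrays and between 6.94 and 7.01 in Venus-dim ones, so the bulge groups did not overlap in scale. Both IFE groups had medians between 7.75 and 7.80. Different probe sets are filled in the bulge and IFE columns, which may have been normalized apart, so a level is tested only within its set. Genes among the 30% with the lowest mean were dropped as dim, which kept 13956 genes and all 9 members in both comparisons. Calls are a limma adjusted p under 0.05 over those genes. With 3 arrays against 3 an exact permutation test cannot go below a two-sided p of 0.1, so it was not used for calls. The bulge groups parted on the first principal component (83.7% of the variance). In the IFE set the first component (48.2%) did not part the genotypes: wild-type array 1 and labelled-KO array 3 lay at its low end, at −22.4 and −19.4. The second (30.9%) parted them. Bmal1 itself, named Arntl on the array, ran from 9.55 to 9.85 in the arrays labelled KO and from 9.27 to 9.47 in wild type, so it was not lower with the knockout label (change 0.30 ± 0.12, limma adjusted p = 0.530). Which part of the gene its probe set reads and which part was deleted are not given in the sources used here, so the labels are neither borne out nor refuted by it. Per1, a target of Bmal1, was at −0.51 ± 0.33 in the IFE comparison and did not pass (limma adjusted p = 0.844), with the genotypes overlapping. Per1 rose by 0.52 ± 0.07 in Venus-bright cells (limma adjusted p = 1.95e-04). Arntl was also higher in them, by 0.164 ± 0.065 (limma adjusted p = 0.0470). The p-values and standard errors rest on the spread between these pooled samples, which limma draws for each gene toward that of all genes tested. A standard error can therefore exceed what a gene's own arrays would give.

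The first comparison sets Venus-bright against Venus-dim bulge cells, parted by the brightness of the Per1 reporter. All 9 members rose in Venus-bright cells. Ccn2 and Thbs1 about doubled, and the smallest change was that of Tgfbi. The background is high: 45.2% of the 13956 genes were called higher in this comparison and 63.5% were called in either direction. The bright and dim arrays did not overlap for any member, beside 50.1% of all genes whose bright arrays all lay above the dim ones. Of the 9 members, 6 were also at least 1.5-fold higher, beside 5.12% of all genes. That count was 8 (11.4% of genes) after median centring, 3 (4.12%) after quantile normalization and 2 (3.51%) after cyclic loess. The members had a median change of 0.60 on the log2 scale, beside 0.15 over all genes tested. The set was named with earlier results of these data known, so these counts describe it and do not single it out.

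**Figure D1:**
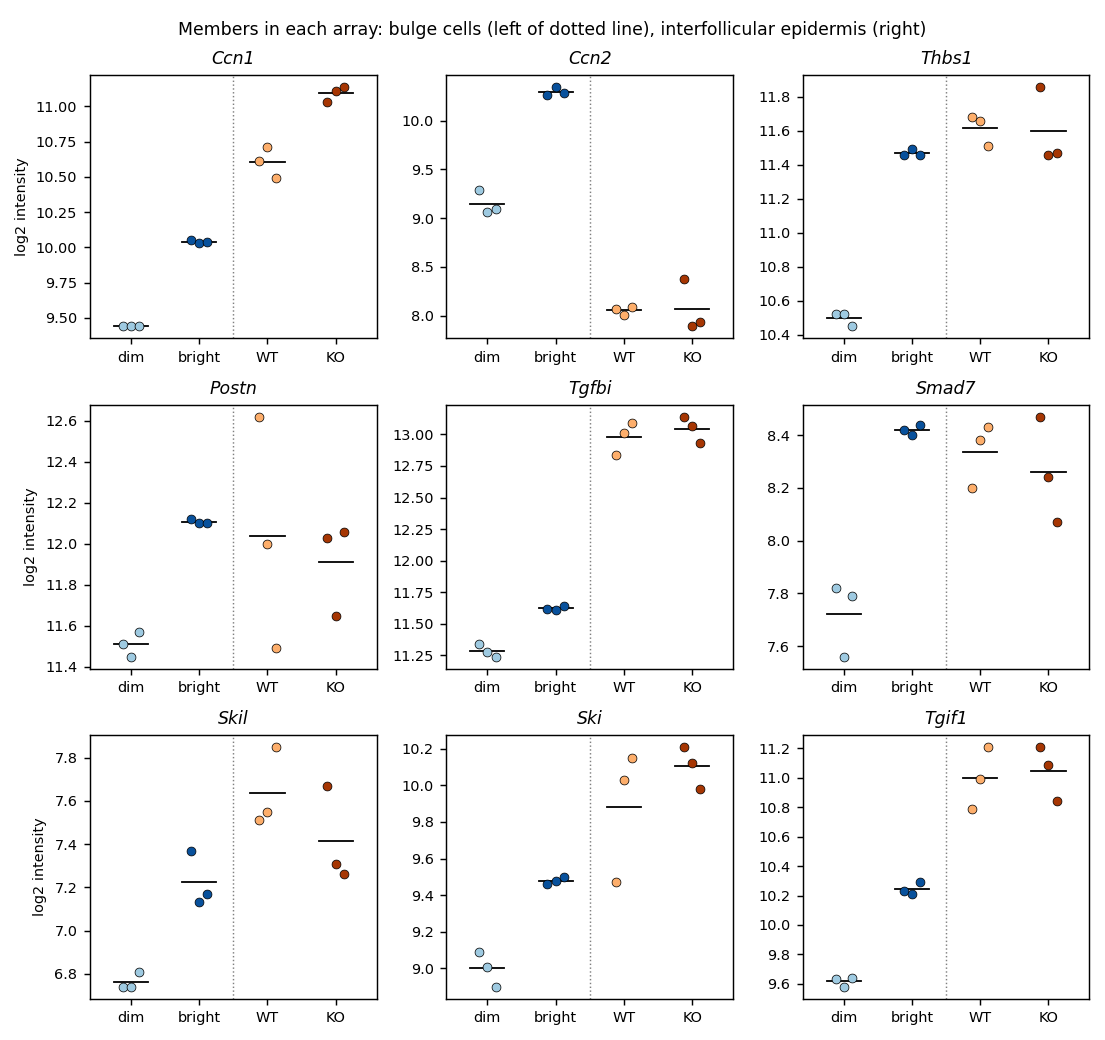
Log2 intensity of each member in every array (points) with the group mean (bar), for Venus-dim and Venus-bright bulge cells and for wild-type (WT) and labelled Bmal1 KO basal IFE cells, 3 arrays each. Levels left and right of the dotted line come from sets that may have been normalized apart. In all 9 panels the bright arrays lie above the dim ones, while WT and KO overlap except for Ccn1.

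Among the secreted proteins, Ccn2, a matrix-bound growth regulator, was at 10.26, 10.35 and 10.28 in Venus-bright arrays 1 to 3 and at 9.29, 9.06 and 9.09 in Venus-dim arrays 1 to 3. The groups were far apart, with dim array 1 the nearest to the bright ones. The log2 change was 1.15 ± 0.07 (SE, n = 3 per group), or 2.22-fold (limma adjusted p = 1.64e-06), which placed it at rank 74 of 13956 genes by change. Thbs1, thrombospondin 1, which can free TGF-beta from its latent complex, was at 11.46, 11.49 and 11.46 in bright arrays and at 10.52, 10.52 and 10.45 in dim ones. It rose by 0.97 ± 0.06, or 1.97-fold (limma adjusted p = 1.27e-06), and the arrays of each group lay close together. Ccn1, the closest relative of Ccn2 among the members and like it a YAP readout, was at 10.05, 10.03 and 10.04 in bright arrays and at 9.44 in each dim array. Its rise of 0.60 ± 0.06 (1.51-fold, limma adjusted p = 2.50e-05) was smaller than that of Ccn2, and its arrays within a group were almost alike.

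Postn and Tgfbi encode periostin and the TGF-beta-induced protein, which share fasciclin domains and bind integrins and collagen. Postn was at 12.12, 12.10 and 12.10 in bright arrays and at 11.51, 11.45 and 11.57 in dim ones, a change of 0.60 ± 0.06 (limma adjusted p = 3.93e-05). Tgfbi was at 11.62, 11.61 and 11.64 against 11.34, 11.28 and 11.24. Its groups did not overlap, yet the gap was the narrowest of the 9. The change was 0.33 ± 0.06, or 1.26-fold (limma adjusted p = 0.00114). Against the median of all genes this left 0.19, and 21.9% of the genes tested had a higher change.

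Of the SMAD brakes Smad7 had the largest change as deposited, from 7.82, 7.56 and 7.79 in dim arrays to 8.42, 8.40 and 8.44 in bright ones. The dim arrays spread more than the bright ones, with array 2 the lowest. The change was 0.70 ± 0.08, or 1.63-fold (limma adjusted p = 5.79e-05). Tgif1 was at 10.23, 10.21 and 10.29 in bright arrays and at 9.63, 9.58 and 9.64 in dim ones. It rose by 0.63 ± 0.06 (limma adjusted p = 2.43e-05). Ski was at 9.46, 9.48 and 9.50 against 9.09, 9.01 and 8.90, and Skil, its paralogue, at 7.37, 7.13 and 7.17 against 6.74, 6.74 and 6.81. Both pairs of groups were apart, and bright array 1 stood highest for Skil. The changes were 0.48 ± 0.07 for Ski and 0.46 ± 0.07 for Skil (limma adjusted p = 2.82e-04 and 5.73e-04). Brakes and secreted targets were thus higher in the same arrays.

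The size of these changes depended on how the arrays were scaled, while their direction was the same in the scalings tried. The median change of all genes was 0.147 as deposited, 0.289 after median centring, 0.069 after quantile normalization and 0.035 after cyclic loess. The calls over all genes were 6311 higher and 2555 lower as deposited, 8928 and 1355 after median centring, 4113 and 1696 after quantile normalization and 3531 and 2208 after cyclic loess. The share of genes called higher was thus 64% after median centring and 25.3% after cyclic loess, beside the 45.2% as deposited. All 9 members stayed called higher in each. Ski moved the most with the scaling, to 0.30 after quantile normalization and 0.25 after cyclic loess. Cyclic loess also left Ccn1 at 0.39 and Tgfbi at 0.22, against 0.94 for Ccn2 and 0.83 for Thbs1. Skil and Smad7 were both at 0.56 after cyclic loess. Relative to the median of all genes as deposited, Ccn2 stood 1.00 higher, Thbs1 0.83, Smad7 0.56, Tgif1 0.48, Postn and Ccn1 0.45 each, Ski 0.33 and Skil 0.32.

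The second comparison concerns basal IFE cells labelled as lacking Bmal1. None of the 9 members passed the threshold in limma, beside 0.193% of all 13956 genes (27 genes), and Ccn1 alone had an unadjusted p under 0.05, which 7.96% of all genes had. Changes were above 0 for 5 members and below 0 for 4, beside 46.5% of all genes above 0, and their median was 0.01, beside −0.01 over all genes. The IFE fit was less precise, with a median standard error over all genes of 0.131 against 0.073 in the bulge set.

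Ccn1 was the 1 member whose genotypes did not overlap, beside 12.7% of all genes (4.11% with labelled-KO arrays higher). It was at 10.61, 10.71 and 10.49 in wild-type arrays 1 to 3 and at 11.03, 11.11 and 11.14 in labelled-KO arrays 1 to 3. All labelled-KO arrays lay above all wild-type arrays, but the change of 0.49 ± 0.10 (95% interval 0.26 to 0.73, unadjusted p = 0.00135) did not pass over all genes (limma adjusted p = 0.167). It passed where the spread was taken from all 12 arrays (limma adjusted p = 0.00445). That fit takes in the bulge arrays, in which Ccn1 varied less. Its group standard deviations were 0.01 and 0 (rounded) there, against 0.06 and 0.11 in the IFE set. The pass is therefore not one on the spread of the IFE arrays. Without wild-type array 1 and labelled-KO array 3 the change was 0.47 ± 0.12 (limma adjusted p = 0.186). This direction rests on the KO labels, which the Bmal1 probe set did not bear out.

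The other YAP readout did not part the genotypes. Ccn2 was at 8.07, 8.01 and 8.09 in wild type and at 8.38, 7.89 and 7.93 in labelled-KO cells. Labelled-KO array 1 was above and the other labelled-KO arrays below every wild-type array. The change was 0.01 ± 0.14, with a 95% interval from −0.32 to 0.34 (limma adjusted p = 0.997). Thbs1 had the same layout, at 11.68, 11.66 and 11.51 in wild type and 11.86, 11.46 and 11.47 in labelled-KO cells, and its change of −0.02 ± 0.13 had an interval from −0.33 to 0.29. Labelled-KO array 1 was again the highest of the 6. Postn spread the most of all members, at 12.62, 12 and 11.49 in wild type and at 12.03, 11.65 and 12.06 in labelled-KO cells. Wild-type arrays 1 and 3 were its highest and lowest values, and the interval of the change ran from −0.73 to 0.49. Tgfbi was at 12.84, 13.01 and 13.09 against 13.14, 13.07 and 12.93, with an interval from −0.19 to 0.33.

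The SMAD brakes overlapped between genotypes as well. Tgif1 was at 10.79, 10.99 and 11.21 in wild type and at 11.21, 11.09 and 10.84 in labelled-KO cells. Smad7 was at 8.20, 8.38 and 8.43 against 8.47, 8.24 and 8.07, and Ski at 9.47, 10.03 and 10.15 against 10.21, 10.12 and 9.98. Skil, at 7.51, 7.55 and 7.85 against 7.67, 7.31 and 7.26, had the lowest change of the members, −0.22 ± 0.15 (95% interval −0.56 to 0.12, limma adjusted p = 0.850). For Tgfbi, Smad7, Ski and Tgif1 the lowest 2 of the 6 values were those of wild-type array 1 and labelled-KO array 3. These arrays lay at the low end of the first component, which held 48.2% of the variance over all genes. The share of all genes with this layout is not given here, so it does not set these members apart. Without the 2 arrays, picked after the data were seen, the changes were 0.05 for Tgfbi, −0.05 for Smad7, 0.07 for Ski and 0.05 for Tgif1, and 0 of the 9 members passed.

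**Figure D2:**
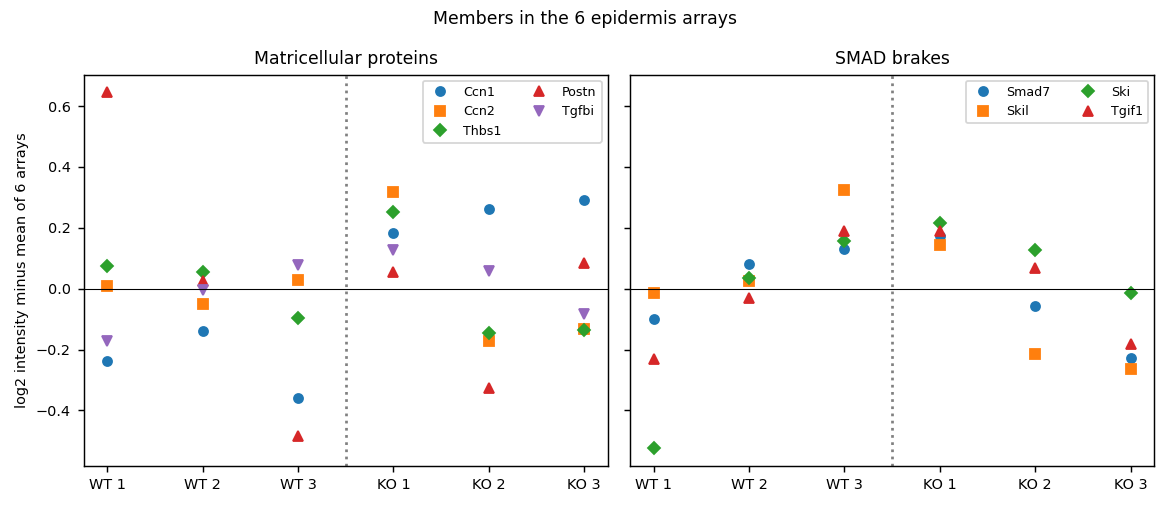
Log2 intensity of each member in the 6 IFE arrays minus its mean over them, with secreted proteins on the left and SMAD brakes on the right (WT, wild type). Ccn1 is below its mean in every WT array and above it in every labelled-KO array, while Ski, Tgif1 and Smad7 are below theirs in WT array 1, and Smad7, Skil and Tgif1 in labelled-KO array 3.

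The changes of the bulge and IFE sets were then compared in a fit of all 12 arrays, as Venus bright minus dim less wild type minus labelled KO. Since tissue, mouse age and pool size differ between the sets, which may also have been normalized apart, only changes within sets are compared. The fit takes 1 spread per gene from all 12 arrays, though the sets were unlike in precision (median standard error 0.131 in the IFE fit, 0.073 in the bulge fit). Its p-values therefore do not rest on the spread of the IFE arrays alone. For 7 of the 9 members the bulge change was higher (limma adjusted p under the threshold), beside 10.7% of 13100 genes tested that differed in this direction and 16.7% in either. The difference was 1.16 ± 0.17 for Ccn2 (limma adjusted p = 5.66e-04), 1.09 ± 0.12 for Ccn1 (6.72e-05) and 0.95 ± 0.15 for Thbs1 (0.00109). Ccn1 was higher with the bright reporter, and its values were also higher in the arrays labelled KO, though that change alone did not pass. Tgif1 differed by 0.68 ± 0.16, Smad7 by 0.63 ± 0.16, Ski by 0.70 ± 0.20 and Tgfbi by 0.40 ± 0.13 (limma adjusted p = 0.0128, 0.0170, 0.0308 and 0.0460). Postn and Skil, at 0.48 ± 0.28 and 0.24 ± 0.17, did not pass (limma adjusted p = 0.230 and 0.307). Without Venus-dim array 2 the count fell from 7 to 4, the calls of Smad7 (adjusted p = 0.0524), Ski (0.0740) and Tgfbi (0.0899) being lost. The Tgfbi call was also lost without any 1 of the bright arrays, dim array 3, wild-type arrays 1 and 2 or labelled-KO arrays 1 and 2, and the Ski call without any 1 of the bright arrays, dim array 3 or labelled-KO arrays 1 and 2 (limma adjusted p up to 0.104 and 0.0789). Without wild-type array 1 Postn passed, at 0.77 (limma adjusted p = 0.0154).

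**Figure D3:**
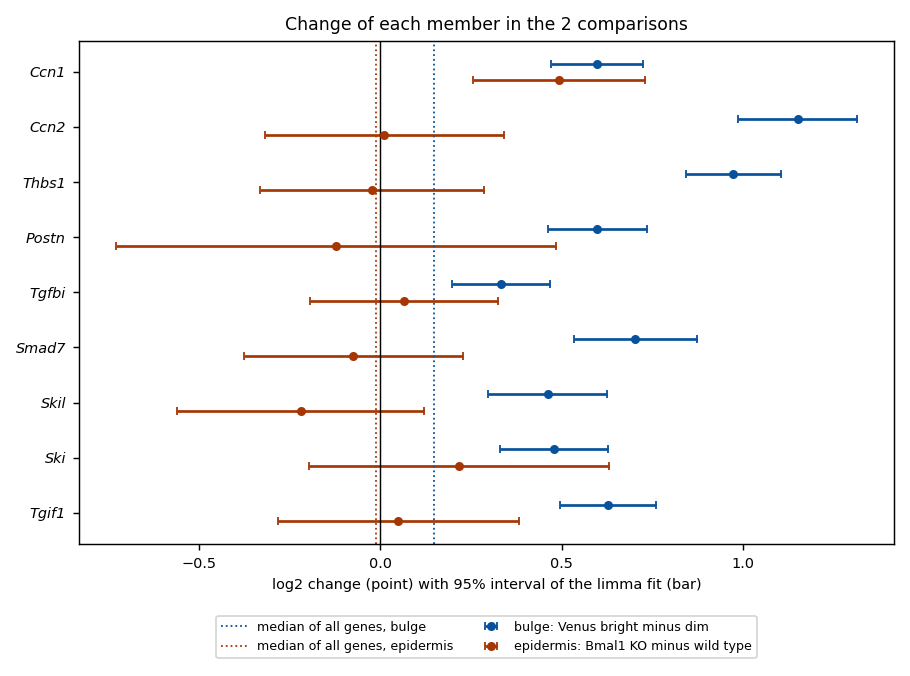
Log2 change of each member with its 95% interval, for Venus-bright minus Venus-dim bulge cells (blue) and labelled Bmal1 KO minus wild-type IFE cells (brown). Dotted lines mark the median change of all genes in each comparison. Every blue interval lies above 0 and the Ccn1 interval is the 1 brown interval that excludes 0.

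Relatives of the members did not all move with them. The counts of genes that rose, here and below, stand beside 45.2% of all genes called higher in the bulge set as deposited. That share was 64% after median centring, 29.5% after quantile normalization and 25.3% after cyclic loess. Counts of genes that fell stand beside 2555 of the 13956 genes called lower as deposited. Median centring gave 1355 lower, quantile normalization 1696 and cyclic loess 2208. In the IFE set 0.193% of all genes were called as deposited. A count near these shares does not set a list apart. In the CCN family, of 4 genes tested in the bulge set, Ccn1 and Ccn2 rose and Ccn5, which lacks the C-terminal module of its relatives, fell by 0.49 ± 0.07 (limma adjusted p = 3.61e-04). Ccn6 was at −0.24 ± 0.12 and did not pass, and Ccn3 and Ccn4 were below the filter on dim genes. Of 4 thrombospondin family genes, Thbs1 and Thbs3 (0.29 ± 0.07) rose, while Thbs2 at −0.04 and Comp at 0.03 did not pass as deposited. Thbs2 was called lower after cyclic loess (−0.17) and Comp higher after median centring (0.17). Among 9 other matricellular genes 6 rose and 3 fell (5 and 3 after cyclic loess). Smoc1 rose by 0.97 ± 0.08, Sparc, which binds collagen and calcium, by 0.91 ± 0.06 and tenascin C (Tnc) by 0.77 ± 0.06, while Smoc2 fell by 0.45 ± 0.06. In the IFE set 0 of these relatives passed, with Sparc at 0.57 ± 0.14 (limma adjusted p = 0.264), Tnc at 0.45 ± 0.13 and Thbs2 at 0.40 ± 0.14. Of 13 receptor genes for matricellular proteins tested in the bulge set 11 rose and 0 fell (10 and 1 after quantile normalization, 8 and 1 after cyclic loess), among them the integrin chains Itga5 (0.71 ± 0.09), Itgb8 (0.66 ± 0.07), Itgav (0.44 ± 0.07) and Itga3 (0.41 ± 0.06). Itga6, part of the sort, was at −0.15 ± 0.07 and was called lower after quantile normalization and cyclic loess. Of 12 tested in the IFE set 0 passed, with Itga3 at 0.35 ± 0.13.

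The other YAP and TEAD targets were mixed in the bulge set. Of 18 tested 9 rose and 1 fell, with a median of 0.18, close to the 0.15 of all genes. After quantile normalization 7 were higher and 2 lower, after cyclic loess 7 and 4, and after median centring 11 and 1. Nt5e, the enzyme CD73, rose by 1.11 ± 0.09, Fjx1 by 0.95 ± 0.08, the Hippo kinase Lats2, a feedback target, by 0.53 ± 0.07 and the receptor kinase Axl by 0.46 ± 0.06. The 1 that fell as deposited was F3, by 0.52 ± 0.10. Ankrd1, Foxf2 and Ccdc80 were below the filter on dim genes in the bulge set, with changes of −0.41, −0.21 and 0.17 without it. The IFE set had 0 of 18 past the threshold as deposited, the nearest being Ccdc80 at −0.91 ± 0.13 (limma adjusted p = 0.0509) and Fjx1 at 0.92 ± 0.20 (limma adjusted p = 0.179). After cyclic loess both passed, Ccdc80 at −0.89 and Fjx1 at 0.94 (limma adjusted p = 0.0291 and 0.0330). In the Hippo core with the TEAD factors, 12 of 16 rose and 0 fell in the bulge set, but 5 were higher and 2 lower after quantile normalization, and likewise after cyclic loess (14 and 0 after median centring). Tead2 rose by 0.77 ± 0.08, Vgll4, a cofactor that competes with YAP for TEADs, by 0.66 ± 0.07, Tead4 by 0.64 ± 0.06 and the kinase scaffold Sav1 by 0.51 ± 0.09. These were called higher in each scaling. Yap1 itself rose by 0.17 ± 0.06 as deposited, but was at 0.02 after quantile normalization and −0.03 after cyclic loess and passed in neither. In the IFE set 0 of 16 passed, with Sav1 at 0.17 ± 0.12 and Nf2 at −0.14 ± 0.12.

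On the TGF-beta side, of 13 ligand, receptor and latent binding protein genes 10 rose and 0 fell in the bulge set (median 0.39). Counts were 9 and 1 after quantile normalization and 8 and 1 after cyclic loess, and Tgfbr3 was the gene called lower after quantile normalization and cyclic loess. The latent TGF-beta binding proteins Ltbp2 (1.17 ± 0.06), Ltbp4 (0.81 ± 0.06) and Ltbp3 (0.62 ± 0.06) led. Their relative Ltbp1, at 0.39 ± 0.07, was at the list median. The ligand Tgfb1 rose by 0.49 ± 0.06. Of 6 signal-carrying SMADs 5 rose as deposited, 6 after median centring and 2 under the quantile or loess scaling. Smad9 (0.92 ± 0.09) and Smad1 (0.49 ± 0.07), which carry BMP signals, had the smallest p-values, and Smad3, which carries TGF-beta signals, was at 0.11 ± 0.08 and did not pass. Among 13 other regulators of SMAD signalling, not all of them brakes, 7 rose and 2 fell (3 and 2 by quantile or loess scaling, 11 and 1 with median centring). The ubiquitin ligases Smurf1 and Smurf2, partners of SMAD7, rose by 0.54 ± 0.07 and 0.44 ± 0.06. Pmepa1 rose by 0.26 ± 0.06 as deposited but did not pass after quantile normalization or cyclic loess. Fbxo31 fell by 0.31 ± 0.07 but did not pass after median centring (−0.17), and Tgif2, the paralogue of Tgif1, fell by 0.40 ± 0.11, opposite in sign to Tgif1. Of 12 other TGF-beta targets 6 rose and 2 fell (4 and 1 in the quantile and loess scalings, 10 and 0 after median centring), with Snai2 at 0.77 ± 0.07, Tgm2 at 0.65 ± 0.06, fibronectin (Fn1) at 0.42 ± 0.07 and Itgb6 at 0.36 ± 0.06. In the IFE set 0 genes of these 4 lists passed as deposited, and among the smallest p-values were those of Bhlhe40 (−0.98 ± 0.20), Tob1 (0.33 ± 0.10), Fn1 (0.69 ± 0.22) and Tgfbr2 (0.39 ± 0.16). Bhlhe40, which is also a repressor within the clock, passed after cyclic loess, at −0.96 (limma adjusted p = 0.0280). Whether its change belongs to TGF-beta or to the clock was not tested.

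**Figure D4:**
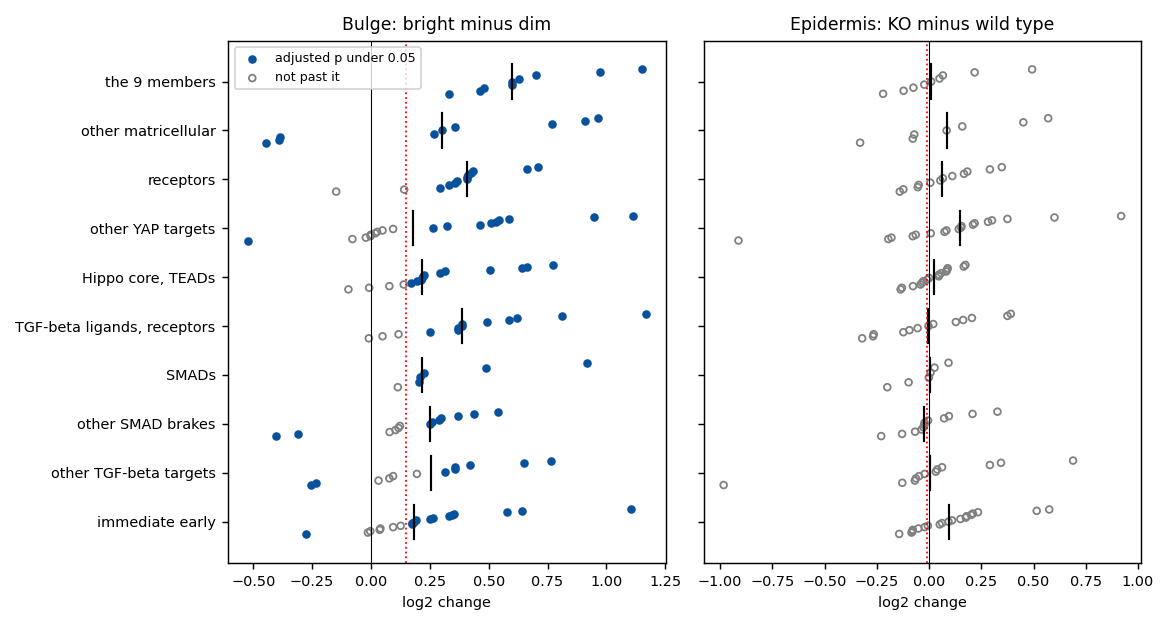
Log2 change of each tested gene of 10 lists, in bulge cells (left, Venus bright minus dim) and IFE cells (right, labelled Bmal1 KO minus wild type). Filled points passed the limma threshold, black bars are list medians and the red dotted line is the median of all genes. The list drawn as other SMAD brakes holds regulators of SMAD signalling, not all of them brakes. Among the 10 lists drawn the 9 members have the highest median in the bulge panel (0.60). The bulge stem cell markers, not drawn, had a higher median there (0.95). No gene of the lists drawn passed in the IFE panel as deposited.

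Ccn1 is also an immediate early gene, one that rises fast after stress or growth factors, so the genes of that class are given beside it. Of 19 tested in the bulge set 12 rose and 1 fell, while quantile normalization left 4 that rose and 2 that fell, cyclic loess 4 and 3, and median centring 15 and 0. Ier3 rose by 1.10 ± 0.08, Jun by 0.64 ± 0.07, Ier2 by 0.58 ± 0.07 and Klf6 by 0.35 ± 0.07, while Fos was at 0.18 ± 0.07, called as deposited (limma adjusted p = 0.0379) but at −0.003 after quantile normalization and −0.05 after cyclic loess, where it did not pass. In the IFE set 0 of 19 passed, with Fosb at 0.51 ± 0.14 and Jun at 0.57 ± 0.26 above 0 like Ccn1. Their part in the Ccn1 values was not tested. By Euclidean distance over the 12 arrays, with each gene centred within its set, the genes most like Ccn1 among 13099 were the cell cycle genes Ccna2 (0.28), Ube2c (0.29) and Cks1b (0.31), beside a median distance of 1.01. Ccna2 was at 0.61 in the bulge comparison and 0.60 in the IFE comparison. The genes most like Ccn2 were Thsd1 (0.21), Boc (0.24) and Hmcn1 (0.29), beside a median of 1.32, and their IFE changes ran from −0.06 to 0.03.

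Markers of cell types differed between the bulge groups too, and a bulk sample cannot tell fewer cells of a type from less RNA per cell. All 10 bulge stem cell markers passed the filter and rose in Venus-bright cells, and the mean of that list was 10.45 to 10.47 in bright arrays and 9.52 to 9.59 in dim ones. Among them Cd34, part of the sort, rose by 1.45 ± 0.06 (limma adjusted p = 2.80e-07). T cell markers moved the other way, 7 of 7 lower (6 after median centring), with list means of 7.23 in bright arrays and 8.21 to 8.34 in dim ones. Markers of endothelium were higher in bright arrays for 8 of 10 genes (6 after quantile normalization or cyclic loess), with list means from 7.96 to 7.97 against 7.62 to 7.69. Of 9 dermal fibroblast markers with a probe set, 4 were below the filter (Dcn, Dpt, Lum and Mfap5), 1 rose (Col1a1) and 3 fell. Their list mean was 6.34 to 6.45 in bright arrays and 6.43 to 6.57 in dim ones. Quantile normalization and cyclic loess left 0 higher and 2 lower, without Col1a1, and median centring 2 higher (Col1a1 and Col1a2) and 1 lower. Smooth muscle and pericyte markers had 1 of 5 higher and 1 lower, platelet markers 3 of 3 lower (1 after quantile normalization or cyclic loess, 0 after median centring) and myeloid markers 1 of 7 higher and 5 lower. Melanocyte markers had 4 of 5 lower and Mitf higher (1.24 ± 0.06), with list means of 6.61 to 6.67 against 6.77 to 6.90. Of 6 markers of differentiated keratinocytes 3 fell, Lor by 1.17 ± 0.06, Tgm3 by 0.37 ± 0.07 and Ivl by 0.33 ± 0.07. In the IFE set Cd34 and Lgr5 were below the filter, and all 8 basal keratinocyte markers were above it. T cell list means there ran from 7.76 to 7.83 in labelled-KO cells and from 8.05 to 9.28 in wild type, with Thy1 the 1 marker called, higher in labelled-KO cells (1.19 ± 0.12). After cyclic loess Cd3g was also called, lower in labelled-KO cells (−2.62). Myeloid list means ran from 6.68 to 6.80 in labelled-KO cells and from 6.81 to 7.78 in wild type. Lor was at −1.40 ± 0.55 in the IFE comparison and did not pass, and list means of differentiated keratinocyte markers ran from 10.59 to 10.76 in labelled-KO cells and from 10.72 to 11.41 in wild type. The part of these cell types in the members' values was not tested.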

How the data were processed

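Total RNA of sorted cells was put through whole transcriptome amplification and hybridised to Affymetrix arrays, per the labels' protocols. What the authors deposited is log2 intensity from RMA, per the submitters' processing notes; version and settings are not given in the sources used here. Of 35512 probe sets, 34760 are filled in the bulge columns and 28853 in the IFE columns. Symbols came from the platform annotation: 21789 probe sets carry 1 symbol, 1621 several and 12102 none listed; only the first kind was tested. Entrez identifiers of 21698 matched RefSeq. A gene with several probe sets was read by the one measured on all 12 arrays, then the one with the highest mean. Fits used limma 3.58.1 (lmFit, eBayes) in R 4.3.3 on the 6 arrays of a comparison, or on all 12 for the difference of changes, with Benjamini-Hochberg adjustment over all genes tested; tests are two-sided, and the code was tested on simulated data. Values after ± are standard errors of the limma fit, with each gene's spread drawn toward that of all genes tested. The members and gene lists were chosen with earlier results of these data known. Named genes are the 9 members and the 3 genes nearest in pattern to Ccn1 and to Ccn2. From each list, up to 4 with the smallest p in the bulge set and up to 2 in the IFE set were also named. Others (Ccn5 and Ccn6, Thbs3, Comp, Itga6, F3, Ankrd1, Foxf2, Yap1, Ltbp1, Smad3, Tgif2, Fos, Tgfbr3, Arntl, Per1 and markers) were named after their values were seen. No 2 arrays were identical and all 12 were used. Alternatives changed the filter on dim genes, the scaling, the variance model, the probe set rule, the replicate block and the arrays included. Precision is limited by how many arrays there are.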

Additional observations from a re-analysis of the deposited data

Results flagged for a closer look

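For 7 of the 9 members the change in the bulge set (Venus bright minus dim) differed from the change in the IFE set (wild type minus labelled KO) in the fit of all 12 arrays: Ccn2 by 1.16, Ccn1 by 1.09, Thbs1 by 0.95, Ski by 0.70, Tgif1 by 0.68, Smad7 by 0.63 and Tgfbi by 0.40 on the log2 scale. For Ccn1 the IFE values were higher in the arrays labelled KO, a label the Bmal1 probe set did not bear out, and for Ccn2 and Thbs1 the IFE change was near 0. Tissue, mouse age and pool size differ between the sets as well, and normalization may, all of which cannot be told apart from the clock contrast in this difference. Groups of 3 arrays are too small for a test of single outlying arrays.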

How the results depend on the processing

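In the bulge comparison each member kept its call and direction under every alternative run on it, including each array left out, where the count of members called was 9 throughout; Skil fell below the filter when the lowest 50% of genes were left out. In the IFE comparison 0 members were called under every alternative except with the spread taken from all 12 arrays, where 1 was (Ccn1). That spread includes the bulge arrays, in which Ccn1 varied less. Total IFE calls over all genes ran from 3 with the replicate block to 407 with that spread, against 27. Uncalled IFE changes turned sign: Ccn2 after quantile normalization (−0.026), and, with wild-type array 1 and labelled-KO array 3 both left out (chosen after seeing the data), Thbs1 (0.069) and Postn (0.10). With single arrays left out, changes ran from −0.15 to 0.10 for Ccn2, −0.15 to 0.05 for Thbs1, −0.40 to 0.17 for Postn, −0.005 to 0.125 for Tgfbi, −0.18 to 0.021 for Smad7 and −0.053 to 0.155 for Tgif1. The cause was not tested.

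For the difference of changes, the 7 calls became 3 (Ccn1, Ccn2 and Thbs1) with the replicate block and 4 to 7 with single arrays left out. Tgfbi was lost in 12 of its alternatives and Ski in 8. The replicate numbers share only a number: deviations of same-numbered arrays correlated at 0.24, 0.26 and −0.06 in the bulge set and −0.44, 0.04 and −0.53 in the IFE set, and not every array correlated best with its own number. The block left 9 members called in the bulge set and 0 in the IFE set.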
